A study of Mus musculus with 12 samples.

Results

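The meninges, the connective tissue sheaths that cover the brain, and the mesenchyme around them were examined through 41 listed genes for collagens, other matrix proteins, a growth factor, a receptor, an enzyme and mesenchymal transcription factors. Members were the array probes whose gene symbol in the platform annotation was on that list. Of the 41 genes, 39 had at least 1 probe, with 45 probes in all, among 15063 genes and 16864 probes that carried a single symbol. Fbn1 and Foxc1 had 0 probes. Enough values for a test were present for 34 members, among 14418 tested features of which 11490 were named genes. Col3a1, Fmod, Postn, Foxc2 and Snai1 had at least 1 probe but too few pools with a value.

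The tissue was neocortex of mouse embryos at E13.5, dissected into a rostral and a caudal end, and the question of the study was which transcripts differ along that axis. The groups were rostral and caudal neocortex of C57, an inbred strain (C57Bl\6), and of MF1, an outbred strain, with 3 pools of each strain. Per the labels each pool held 3 embryos, and the series' design text describes tissue from single litters and amplification of the cDNA by the SMART method. No allele, transgene or treatment is named for any group. Each pool's rostral RNA was hybridised together with its caudal RNA on 2 arrays with the dyes Cy3 and Cy5 exchanged, which made 12 arrays. Whether pools of one strain were taken from different litters is not stated, so p-values measure only the spread between these pools, which may be technical in part.

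In the embryonic head, mesenchyme surrounding the telencephalon forms the meninges, whose fibroblast-like cells lay down fibrillar collagens and the small proteoglycans that organise them. Where meninges meet brain, and around blood vessels, a basement membrane of collagen IV, laminins and nidogen forms, to which the neural progenitors attach their outer processes. Meningeal cells also release signals to the cortex, among them retinoic acid made by Aldh1a2 and the growth factor Igf2. Neural cells of the developing neocortex are known to make little fibrillar collagen.

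Each value is given as log2 of rostral signal over caudal signal, so 0 means equal signal relative to the median probe of the array, negative values mean lower rostrally and positive values higher rostrally. A pool value is the mean of the pool's 2 arrays. The direction is likely rather than known, because the deposited values do not state their numerator: Cy5 over Cy3 was assumed, and with it Nr2f1, a transcription factor known to be higher in caudal cortex, was below 0 in every pool, at -1.89, -1.48 and -1.51 in C57 pools 1 to 3 and -0.49, -0.57 and -0.89 in MF1 pools 1 to 3. Ratios hold no level, so the presence of meningeal cells in a sample could not be read from them, and fewer cells of a type and less RNA per cell cannot be told apart in dissected tissue. The C57 arrays had more missing probes (mean 14.6% of probes, against 7.73% on MF1 arrays) and a wider spread of log2 ratios (mean SD, estimated from the median absolute deviation, 0.74 on C57 and 0.49 on MF1 arrays). After turning, the arrays of a pool correlated across all probes at r = -0.37, -0.18 and -0.16 in C57 pools 1 to 3 and at 0.06, -0.01 and 0.09 in MF1 pools 1 to 3, so the arrays of a pool often read a probe differently; readings of single arrays are given for some members only. Each array held 1 strain, so strain and set of arrays cannot be told apart.

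Over both strains, the members' log2 ratios lay mostly below 0: 24 of 34 tested members were below 0, which is 70.6% against 48.4% of all features. The members' median log2 ratio was -0.08, against 0.01 over all features. At an unadjusted p under 0.05 in limma's moderated test, 5 members were lower rostrally, namely Col1a1, Fbn2, Timp3, Twist2 and Vtn, or 14.7% of the members against a background of 4.64% of all features. In the other direction Ogn alone was called, 2.94% of members against 4.34% of features, so that 6 members (17.6%, against 8.98% of features) were called in either direction. After Benjamini-Hochberg adjustment over all 14418 features, 0 members and 0 features (0%) passed 0.05, and the lowest adjusted p of a member was 0.482 in limma. Without centring the arrays, the median of all features moved to -0.18, the members' median to -0.27 and the unadjusted calls to 13, all of them lower rostrally (38.2% of members, against 14% of features called lower under that setting). Leaving out C57 pool 3 brought the 6 unadjusted calls down to 3 (8.82% of members, against 9.48% of features). Leaving out MF1 pool 2 also brought them down to 3 (8.82%, against 7.53%). In these fits the members' share called in either direction was thus near that of all features. All 3 calls in each fit were lower rostrally, however. Of all features, 5.11% were called lower without C57 pool 3 and 4.2% without MF1 pool 2.

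The members lay lower in C57 than in MF1 by their median, although no single strain difference passed adjustment. In C57 the members' median log2 ratio was -0.24, with 22 of 34 below 0 (64.7%, against 49.5% of features), while in MF1 it was 0.01, with 16 of 34 below 0 (47.1%, against 48% of features); over all features the medians were 0.00 in C57 and 0.01 in MF1. The pool medians of the members were -0.40, -0.07 and -0.27 in C57 pools 1 to 3 and 0.12, 0.01 and -0.12 in MF1 pools 1 to 3. C57 pool 1 stood lowest, with 27 of its 33 measured members below 0 (81.8%, against 47.5% of features). MF1 pool 1 stood highest, with 14 of 34 below 0 (41.2%, against 52.4%). The pools of the strains overlapped, since the median of C57 pool 2 lay above that of MF1 pool 3.

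**Figure D1:**
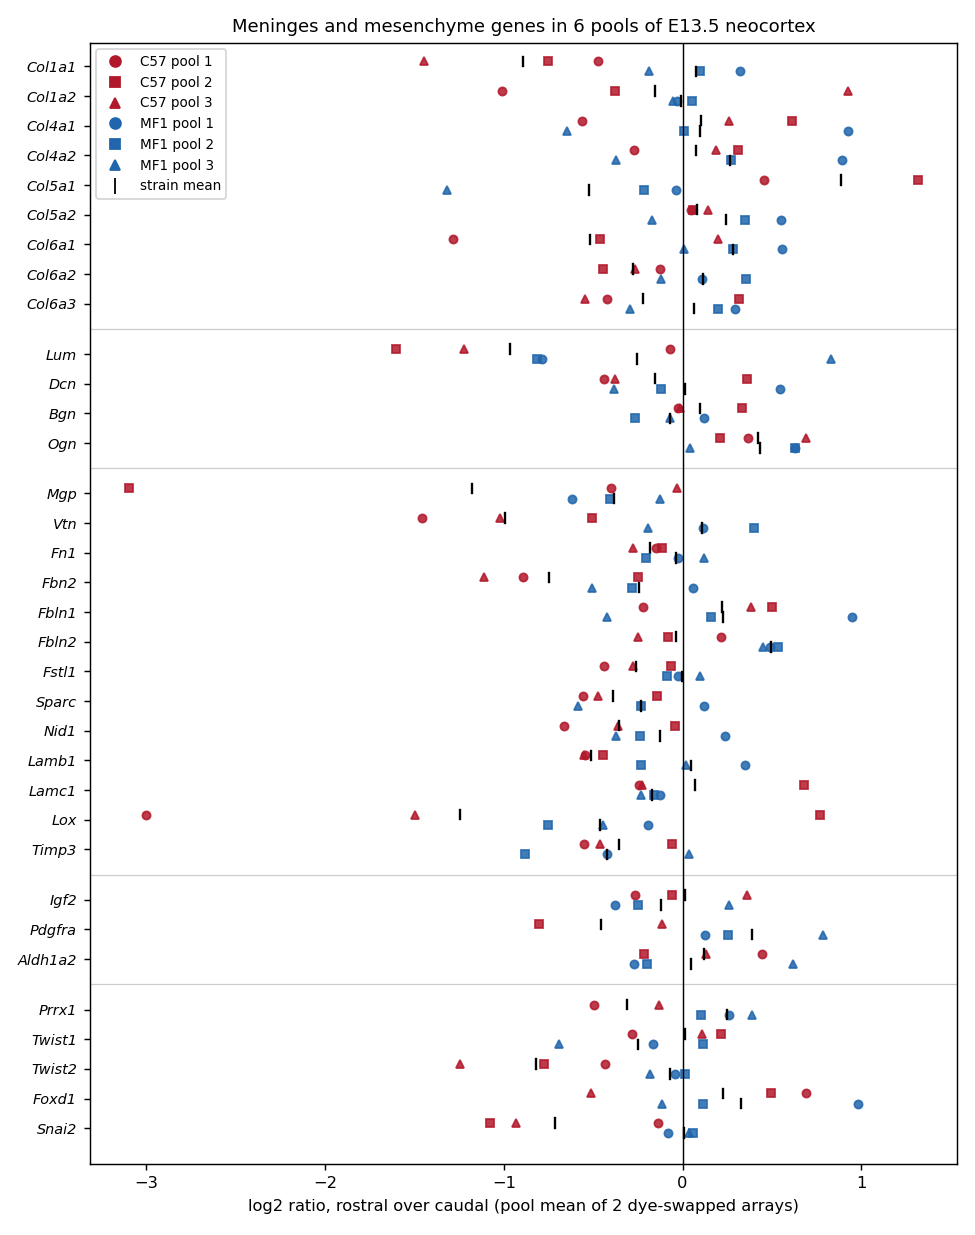
Log2 ratio of rostral over caudal neocortex (horizontal axis) of the 34 tested members, grouped by role from collagens at the top to transcription factors at the bottom; each symbol is 1 pool (C57 red, MF1 blue, shape by pool number) and the black ticks are strain means. Most C57 symbols of the glycoprotein group lie left of 0, and Mgp and Lox each have 1 C57 pool near -3.

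The collagens did not move as one group. Collagen I, the main fibrillar collagen of connective tissue, is built from the chains of Col1a1 and Col1a2. Col1a1 was -0.47, -0.75 and -1.45 in C57 pools 1 to 3 and 0.32, 0.10 and -0.19 in MF1 pools 1 to 3. Every C57 pool thus lay below every MF1 pool; the arrays of C57 pool 3, the lowest, read alike (-1.38 and -1.52), while those of C57 pool 2 disagreed (0.16 and -1.67). The mean over both strains was -0.41 ± 0.64 (SD, n = 6 pools), with an adjusted p of 0.537 in limma, and the C57 mean was -0.89 ± 0.50 (SD, n = 3 pools), with an adjusted p of 0.303 in limma. Col1a2, whose product joins that of Col1a1 in the same triple helix, was -1.01, -0.38 and 0.93 in the C57 pools and -0.03, 0.05 and -0.05 in the MF1 pools. Its C57 pools spanned both signs and its MF1 pools stayed close to 0, and the chains lay furthest apart in C57 pool 3, where the arrays of Col1a2 read -0.19 and 2.04.

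Collagen IV, the network collagen of basement membranes, is built from the chains of Col4a1 and Col4a2, which lie on opposite strands with adjoining start sites. Their promoter windows from RefSeq (GRCm38.p6, 250 bases before to 50 bases after each start site) are shown because both genes had pool values that moved together. Col4a1 occupies the minus strand at chr8:11312777-11313076 and Col4a2 the plus strand at chr8:11312555-11312854. The annotated start sites lie 21 bases apart, at 11312826 for Col4a1 and 11312805 for Col4a2, so that by this annotation the first bases of both transcripts overlap. Capitals mark the 78 bases (chr8:11312777-11312854) that the windows share, read on opposite strands.
Col4a1: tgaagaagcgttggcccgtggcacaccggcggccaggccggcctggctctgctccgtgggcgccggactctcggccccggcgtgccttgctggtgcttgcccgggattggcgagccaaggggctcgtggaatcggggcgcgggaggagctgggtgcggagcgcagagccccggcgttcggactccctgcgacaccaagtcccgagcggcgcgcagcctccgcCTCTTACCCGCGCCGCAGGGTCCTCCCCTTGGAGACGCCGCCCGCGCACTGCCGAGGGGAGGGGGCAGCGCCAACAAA
Col4a2: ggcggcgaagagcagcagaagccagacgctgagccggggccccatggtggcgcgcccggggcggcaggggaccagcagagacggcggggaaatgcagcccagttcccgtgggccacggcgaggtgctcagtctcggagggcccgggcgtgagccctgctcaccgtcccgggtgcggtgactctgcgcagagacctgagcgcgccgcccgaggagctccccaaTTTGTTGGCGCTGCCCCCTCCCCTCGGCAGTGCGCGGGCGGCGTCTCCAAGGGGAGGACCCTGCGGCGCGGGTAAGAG
The windows are rich in G and C, at 74% for Col4a1 and 73.7% for Col4a2, against a median of 52.7% over 32851 RefSeq windows of the same length. Searched on both strands, the GC box letters GGGCGG matched 1 time in the Col4a1 window and 3 times in that of Col4a2, and 35.7% of all windows hold them. The letters CCAAT matched 1 time in each window (37.4% of all windows) and TATAAA matched 0 times in each (13.6% of all windows). A match is a description of letters only.

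Col4a1 was -0.56, 0.61 and 0.26 in C57 pools 1 to 3 and 0.92, 0.01 and -0.65 in MF1 pools 1 to 3. Col4a2 was -0.27, 0.31 and 0.19 in the C57 pools and 0.89, 0.27 and -0.37 in the MF1 pools. Both genes were lowest in MF1 pool 3 and C57 pool 1 and highest in MF1 pool 1, in that order of pools at the ends. Their means over both strains were 0.10 ± 0.63 for Col4a1 and 0.17 ± 0.46 for Col4a2 (SD, n = 6 pools each), with adjusted p-values of 0.920 and 0.810 in limma, so neither chain had a rostral or caudal bias beyond the spread of the pools. Without centring, both means were below 0, at -0.09 for Col4a1 and -0.02 for Col4a2.

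Both arrays of a pool read this spread between pools alike. They gave Col4a1 nearly the same ratio with the dyes exchanged: -0.54 and -0.59 in C57 pool 1, 0.56 and 0.67 in C57 pool 2, 0.22 and 0.30 in C57 pool 3, 0.84 and 1.0 in MF1 pool 1, 0.16 and -0.15 in MF1 pool 2, and -0.61 and -0.68 in MF1 pool 3. The largest gap between the arrays of a pool was 0.31, and 0.894% of the 11071 probes measured on every array had a smaller one. Col4a2 and Fbln1 had the same sign on both arrays in 6 of 6 pools, which 5.88% of the 34 completely measured member probes did, against 3.16% of all such probes. In at least 5 of 6 pools this held for 12 member probes (35.3%, against 16.2%).

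**Figure D2:**
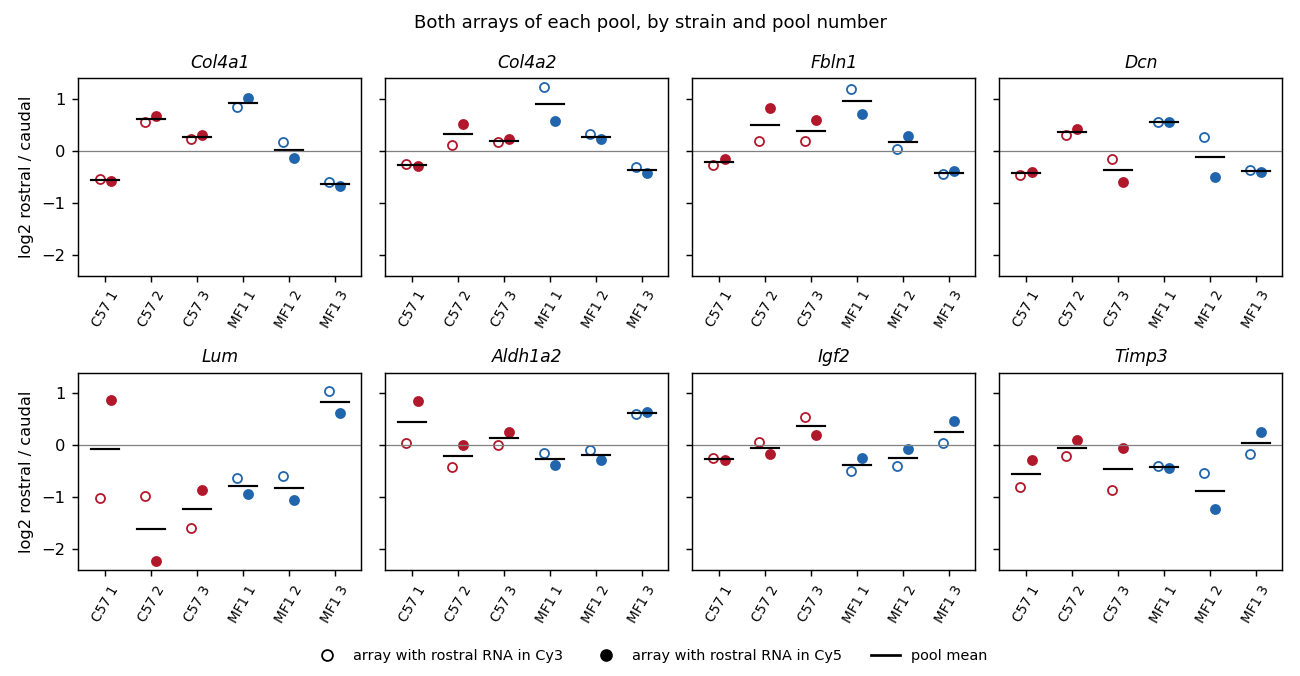
Log2 ratio of rostral over caudal neocortex on each of the 2 arrays of a pool, for 8 members chosen after their values were seen; open circles are arrays with rostral RNA in Cy3, filled circles arrays with rostral RNA in Cy5, and bars pool means. In MF1 pool 1 the upper row (Col4a1, Col4a2, Fbln1, Dcn) lies above 0 and in MF1 pool 3 below 0, while the pool means of Lum, Aldh1a2, Igf2 and Timp3 have the opposite order; the arrays of Timp3 in MF1 pool 3 differ in sign.

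The chains of collagen VI, a beaded-filament collagen of connective tissue, gave small means. Col6a1 was -1.29, -0.46 and 0.20 in the C57 pools and 0.55, 0.28 and 0.01 in the MF1 pools, with the lowest value resting on arrays that disagreed (0.88 and -3.46). Its neighbour on chromosome 10, Col6a2, was -0.13, -0.44 and -0.27 in the C57 pools and 0.11, 0.36 and -0.12 in the MF1 pools, so every C57 pool was below every MF1 pool, if narrowly. Col6a3 was -0.42, 0.32 and -0.55 in the C57 pools and 0.30, 0.20 and -0.30 in the MF1 pools, as the mean of 3 probes that disagreed, with means of -0.10, -0.25 and 0.12. The adjusted p over both strains was 0.877, 0.850 and 0.903 for Col6a1, Col6a2 and Col6a3 in limma.

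Collagen V regulates the width of collagen I fibrils, and its chains also differed from each other. Col5a1 was 0.45 and 1.32 in C57 pools 1 and 2, with only 1 array measured in pool 3, and -0.04, -0.22 and -1.32 in the MF1 pools. It was the only tested member with every C57 pool above every MF1 pool (2.94% of members, against 5.94% of features), and the difference C57 minus MF1 was 1.41 ± 0.50 (SE), with an adjusted p of 0.780 in limma. The arrays of C57 pool 1 gave -0.17 and 1.07 and those of C57 pool 2 -0.18 and 2.81, the positive readings with rostral RNA in Cy5. With rostral RNA in Cy3 the C57 arrays read -0.17, -0.18 and -0.52. The MF1 arrays read 0.235, -0.16 and -2.09 there, so in that orientation the strains overlapped. Col5a2 was above 0 in 5 of 6 pools, with values between -0.17 and 0.55. Over the 9 tested collagens, the median log2 ratio was -0.15 in C57 and 0.10 in MF1, 5 of 9 lay below 0 over both strains (against 48.4% of features), and Col1a1 alone was called at an unadjusted p under 0.05, when 8.98% of features were.

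The small leucine-rich proteoglycans bind collagen fibrils and set their spacing. Ogn, which encodes osteoglycin, was above 0 in every pool, at 0.36, 0.21 and 0.69 in C57 and 0.63, 0.63 and 0.04 in MF1. Its mean was 0.43 ± 0.27 (SD, n = 6 pools), with an adjusted p of 0.484 in limma, and a same sign in every pool with a higher rostral signal was found for 3.2% of features, against 2.94% of members. The value of C57 pool 2 averages probes that contradicted each other, at -1.98 for the first probe (arrays -5.83 and 1.87) and 2.39 for the second (arrays 4.40 and 0.39), so Ogn is above 0 in that pool only as a mean of unlike readings. With each probe as its own feature, the first probe averaged 0.02.

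Lum and Dcn, for lumican and decorin, neighbour each other on chromosome 10, and they differed in pattern. Lum was -0.07, -1.60 and -1.22 in the C57 pools and -0.79, -0.82 and 0.83 in the MF1 pools, below 0 everywhere except MF1 pool 3, although the arrays of C57 pool 1 differed in sign (-1.02 and 0.88). Dcn was -0.44, 0.36 and -0.38 in the C57 pools and 0.55, -0.12 and -0.39 in the MF1 pools, with an average of -0.07 over both strains. Both arrays of MF1 pool 3 put Lum above 0 (1.05 and 0.62) and Dcn below 0 (-0.37 and -0.40). Bgn, for biglycan, stayed between -0.26 and 0.33, with arrays of opposite sign in every pool. Over the 4 tested proteoglycans the median was -0.03 in C57 and -0.03 in MF1.

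The glycoproteins, basement membrane proteins and matrix regulators were the group that lay most to the caudal side. Of its 13 tested members, 11 were below 0 over both strains, as were 48.4% of all features, with a median of -0.24. In C57 pools 1 to 3, 12, 10 and 12 of the 13 were below 0, against 47.5%, 52.1% and 49.5% of features. In MF1 pools 1 to 3, 6, 10 and 8 of the 13 were below 0, against 52.4%, 50.1% and 47.1%. The median of the members was -0.36 in C57 and -0.12 in MF1. Fbn2, Timp3 and Vtn were called lower at an unadjusted p under 0.05, as were 4.64% of features, and none after adjustment.

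Vtn, for vitronectin, a cell adhesion protein made in the brain largely by pericytes, showed the sharpest contrast between strains by p. It was -1.46, -0.51 and -1.02 in C57 pools 1 to 3 and 0.12, 0.40 and -0.19 in MF1 pools 1 to 3. All 6 C57 arrays were below 0, and the lowest MF1 pool lay above the highest C57 pool. The C57 mean was -1.0 ± 0.48 (SD, n = 3 pools), with an adjusted p of 0.260 in limma, and the difference C57 minus MF1 was -1.10 ± 0.32 (SE), with an adjusted p of 0.700 in limma.

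Fbn2, which encodes a microfibril protein of embryonic tissue, was -0.89, -0.25 and -1.11 in C57 and 0.06, -0.28 and -0.51 in MF1. It was below 0 in 5 of 6 pools with overlapping strains, the arrays of C57 pool 2 differed in sign (-0.95 and 0.45), and its mean of -0.50 ± 0.44 (SD, n = 6 pools) had an adjusted p of 0.482 in limma. Timp3, an inhibitor of matrix metalloproteinases held in the matrix, was -0.55, -0.06 and -0.46 in C57 and -0.42, -0.88 and 0.04 in MF1. Here the strains overlapped fully, and the mean was -0.39 ± 0.34 (SD, n = 6 pools), with an adjusted p of 0.538 in limma. Sparc, a collagen-binding protein, was -0.56, -0.14 and -0.47 in C57 and 0.12, -0.24 and -0.58 in MF1, below 0 in 5 of 6 pools, with arrays of a pool never more than 0.49 apart.

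Mgp, an inhibitor of calcification, was below 0 in every pool, as were 2.84% of features, and it was the only such member (2.94%). Its values were -0.40, -3.10 and -0.03 in C57 and -0.62, -0.41 and -0.12 in MF1. The arrays differed in sign in C57 pool 1 (-0.99 and 0.19), C57 pool 3 (-0.27 and 0.21) and MF1 pool 3 (-0.50 and 0.255). C57 pool 2 stood far below the others, on arrays of -5.06 and -1.14, and the mean of -0.78 over both strains became -0.30 without that pool. Lox, the enzyme that cross-links collagen and elastin, had the widest range of all tested members, at -3.0, 0.77 and -1.50 in C57 and -0.19, -0.75 and -0.45 in MF1. The arrays of C57 pool 1 gave 0.39 and -6.39, so that value rests on 1 array.

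Among the laminin and nidogen genes of the basement membrane, Lamb1 was -0.55, -0.45 and -0.55 in C57 and 0.35, -0.23 and 0.02 in MF1, with every C57 pool below every MF1 pool. Its C57 arrays split by dye, with -0.89, -0.98 and -0.94 where rostral RNA was in Cy3 and -0.21, 0.09 and -0.16 where it was in Cy5. Nid1, which links the laminin and collagen IV networks, lay between -0.66 and 0.24 and was below 0 in 5 of 6 pools. Lamc1 was between -0.25 and -0.12 in 5 pools and 0.68 in C57 pool 2. The basement membrane genes of the list thus did not move as one group: Col4a1 and Col4a2 had positive means over both strains, and Lamb1, Lamc1 and Nid1 negative ones of -0.23, -0.05 and -0.24. Over both strains none of these genes was called at an unadjusted p under 0.05.

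The fibulins, matrix glycoproteins of elastic fibres and basement membranes, were the members of this group with positive means. Fbln1 was -0.22, 0.50 and 0.38 in C57 and 0.95, 0.16 and -0.42 in MF1, with the lowest and the highest pool the same as for Col4a1 and Col4a2. Fbln2 was 0.21, -0.08 and -0.25 in C57 and 0.49, 0.54 and 0.45 in MF1, with the smallest MF1 SD of the tested members and every C57 pool below every MF1 pool. Its arrays split by dye. With rostral RNA in Cy3 they read -0.01, -0.23 and -0.57 in C57 and 0.786, 0.867 and 0.645 in MF1. In Cy5 they read 0.43, 0.07 and 0.07 in C57 and 0.195, 0.205 and 0.255 in MF1, so there the strains overlapped. Fbln2 was the only member called at an unadjusted p under 0.05 in MF1 (2.94% of members, against 4.36% of features), with an MF1 mean of 0.49 ± 0.04 (SD, n = 3 pools) and an adjusted p of 0.991 in limma. Without MF1 pool 1 or pool 2 there were 0 such calls in MF1 (against 4.5% and 4.38% of features), and without MF1 pool 3 there were 4 (11.8%, against 7.92%). Fn1, for fibronectin, had probes that disagreed, with 1 below 0 in 6 of 6 pools (mean -0.40) and the other above 0 in 5 of 6 (mean 0.18). Fstl1, a secreted protein related to Sparc, lay between -0.44 and 0.10.

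The growth factor, receptor and enzyme of the list had means near 0. Igf2, a growth factor made by meningeal and vascular cells, was -0.27, -0.06 and 0.36 in C57 and -0.38, -0.25 and 0.26 in MF1. Aldh1a2, which makes retinoic acid and marks the meninges at this stage, was 0.45, -0.21 and 0.13 in C57 and -0.27, -0.20 and 0.62 in MF1. Neither gene kept 1 sign within a strain. Pdgfra, the platelet-derived growth factor receptor of mesenchymal cells, was -0.80 and -0.11 in C57 pools 2 and 3, with only 1 array measured in pool 1, and 0.12, 0.25 and 0.79 in MF1. Its probes disagreed, with means of -0.17 and 0.46, and the second probe's MF1 pool 3 arrays read -0.69 and 4.02. The value of C57 pool 2 came from the second probe alone (arrays 0.932 and -2.535) and that of MF1 pool 1 from the first alone. The first probe was -0.04 and -0.09 in MF1 pools 2 and 3.

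Of the mesenchymal transcription factors, Twist2, a helix-loop-helix factor of dermal and cranial mesenchyme, had the smallest p of all members over both strains. It was -0.43, -0.78 and -1.25 in C57 and -0.04, 0.01 and -0.18 in MF1, and each of the 6 C57 arrays was below 0. The mean was -0.45 ± 0.49 (SD, n = 6 pools), with an adjusted p of 0.482 in limma. The C57 mean was -0.82 ± 0.41 (SD, n = 3 pools), with an adjusted p of 0.277 in limma. Its relative Twist1, which is needed for cranial mesenchyme and skull formation in mice, was -0.28, 0.22 and 0.11 in C57 and -0.16, 0.11 and -0.69 in MF1, centred near 0 with arrays up to 2.13 apart.

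Snai2, a zinc-finger factor of neural crest and mesenchyme, resembled Twist2 in having low C57 pools and MF1 pools near 0. It was -0.14, -1.08 and -0.93 in C57 and -0.08, 0.06 and 0.04 in MF1, with arrays of C57 pool 1 at -1.03 and 0.76. The C57 mean of -0.72 ± 0.51 (SD, n = 3 pools) had an adjusted p of 0.359 in limma. Snai1, the other Snai factor listed, was not tested, having only 1 C57 pool with both arrays. Prrx1, a homeobox factor of limb and head mesenchyme, was -0.49 and -0.13 in C57 pools 1 and 3 and 0.26, 0.10 and 0.39 in MF1. Every C57 pool of Prrx1 was below every MF1 pool, as in 8.04% of features, but its arrays had opposite signs in each of these pools, at -1.22 and 0.23 in C57 pool 1 and 1.12 and -0.60 in MF1 pool 1. Foxd1, a forkhead factor, lay between -0.51 and 0.98. Over the 5 tested factors the median was -0.31 in C57 and 0.01 in MF1.

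The 5 members that were not tested had values in few pools. Col3a1 was -0.81 in C57 pool 1 and 0.03, 0.28 and 0.26 in the MF1 pools, and Fmod, for the proteoglycan fibromodulin, was 1.84 in C57 pool 2 and -0.50, -0.29 and 0.19 in the MF1 pools. Postn, for periostin, was -0.06 and -0.30 in MF1 pools 2 and 3, with 0 C57 arrays measured. The probe means of Foxc2, a forkhead factor, over the measured pools were 0.12 and -0.68, and the pool values of Snai1 ran from -1.23 to 0.62. Each of these probes had at most 1 C57 pool, so the strains were not compared.

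Within C57, 6 members were called at an unadjusted p under 0.05 and all were lower rostrally, namely Col1a1, Fbn2, Lamb1, Snai2, Twist2 and Vtn. This is 17.6% of members, against 5.48% of features called lower and 9.71% called in either direction; 0 members and 0% of features passed after adjustment. All 3 C57 pools were below 0 in 14 of 34 members (41.2%, against 13.4% of features), and all 3 MF1 pools in 4 members, Col5a1, Lamc1, Lox and Mgp (11.8%, against 8.11%). All 3 MF1 pools were above 0 in 5 members, Col6a1, Fbln2, Ogn, Pdgfra and Prrx1 (14.7%, against 9.99%), and all 3 C57 pools in Col5a2 and Ogn (5.88%, against 14.3%). The excess of calls in either direction in C57 was not seen with rostral RNA in Cy5 alone, where 7 of 37 members were called (18.9%, against 20.2% of 17174 features). Of these 7, 6 were lower rostrally, when 11.8% of features were called lower. With rostral RNA in Cy3 alone, 11 of 38 members were called in C57 (28.9%, against 20.5% of 17202 features). Of these 11, 10 were lower rostrally, when 8.96% of features were called lower. In this setting 188 features passed adjustment. Among these, Col3a1, the fibrillar collagen left untested for missing pools, stood at -2.0 with an adjusted p of 0.0440 in limma. This setting rests on 1 array a pool and on fewer C57 arrays for Col3a1, whose Cy3 readings were -1.87 and -2.14 in C57 pools 1 and 3 and whose Cy5 readings were 0.25 and 0.32 in C57 pools 1 and 2.

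**Figure D3:**
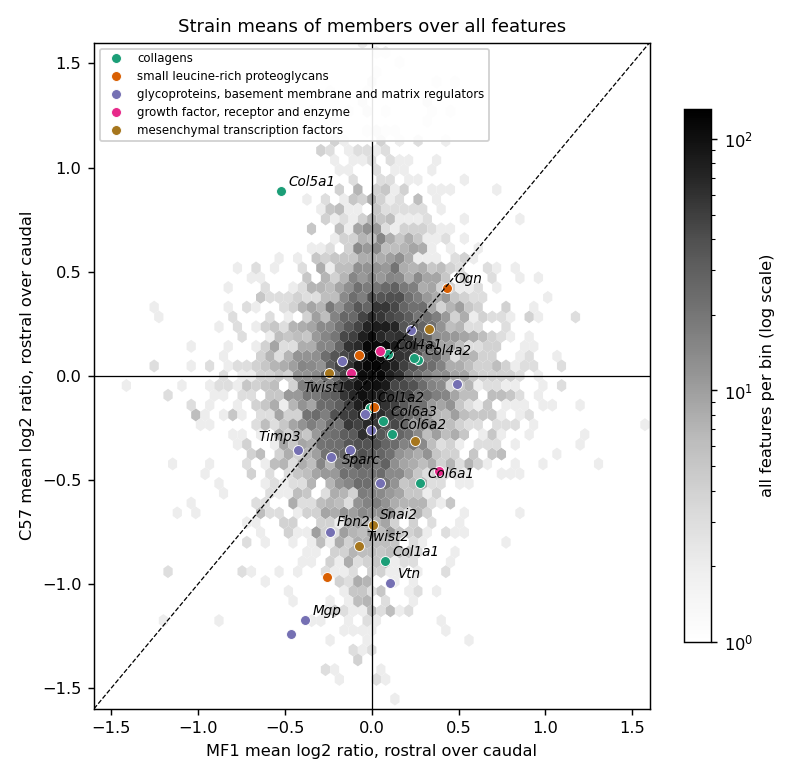
Mean log2 ratio of rostral over caudal neocortex in C57 (vertical axis) against MF1 (horizontal axis) for the 34 tested members, coloured by role, over all features as grey bins on a log scale; the dashed line marks equal means. Members such as Vtn, Col1a1, Twist2 and Snai2 lie far below 0 in C57 and near 0 in MF1, and Col5a1 lies on the other side; 221 features outside the axes of 1.6 are not drawn, and 0 members lie outside.

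The strain difference itself was tested as C57 minus MF1. Its median over members was -0.21, against -0.01 over all features, and 26 of 34 members were below 0, against 51.4% of features. Leaving out each pool in turn moved the members' median between -0.36 and -0.15. At an unadjusted p under 0.05 in limma, 7 members were called (20.6%, against 6.1% of features), with Col1a1, Fbln2, Lamb1, Snai2, Twist2 and Vtn lower in C57 (17.6%, against 3.61%) and Col5a1 higher. None passed adjustment, as did 0% of features, and the lowest adjusted p of a member was 0.700 in limma. Every C57 pool lay below every MF1 pool in 9 members (26.5%, against 8.04% of features), which adds Col6a2, Pdgfra and Prrx1 to those lower in C57. For Pdgfra the pools compared did not all hold the same probe. Leaving out MF1 pool 1 lowered the 7 calls to 2 (5.88% of members, against 5.52% of features). There were 3 without MF1 pool 2 (8.82%, against 4.87%) and 3 without MF1 pool 3 (8.82%, against 7.66%). Without C57 pool 2 there were 4 (11.8%, against 6.73%). With rostral RNA in Cy3 alone the members' median difference was -0.40 and with rostral RNA in Cy5 alone -0.02, so its size depended on the dye orientation.

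Despite those differences, the strain means had the same sign in 18 of 34 members (52.9%), against 56.5% of all features. Both were below 0 in 11 members, Col1a2, Fbn2, Fn1, Fstl1, Lox, Lum, Mgp, Nid1, Sparc, Timp3 and Twist2 (32.4%, against 27% of features).

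Pools of a strain also differed from each other across the members. Over the 34 members, MF1 pools 1 and 2 correlated at r = 0.65 across genes, against 0.18 over all features. MF1 pools 1 and 3 correlated at -0.27, against -0.14 over all features, and MF1 pools 2 and 3 at 0.01, against -0.10. The C57 pools correlated with each other at 0.03 to 0.35 over 32 members, against -0.02 to 0.14 over all features. Genes are not independent replicates, both arrays of a pool share its RNA, and these correlations are descriptions.

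The same ratios in other gene lists describe other tissues that a dissection can carry along, relative to the median of each array. Among 42 other matrix and collagen-processing genes the median over both strains was 0.05, with 2 called higher and 4 lower at an unadjusted p under 0.05. Over all features 4.34% were called higher and 4.64% lower, against which the counts of this and the following lists are to be read. Tnc, for tenascin C, was -0.42, -0.48 and -0.53 in C57 and -0.05, -0.37 and -0.66 in MF1, below 0 in every pool. The metalloproteinase inhibitor Timp2 was also below 0 in every pool (mean -0.32), Prelp in 5 of 6 (mean -0.51), and Eln, for elastin, was above 0 in every pool (mean 0.33). Among 36 other meningeal and mesenchymal genes the median was 0.01, with Ptn, for the growth factor pleiotrophin, and Msx2 called higher and Foxf1 lower at an unadjusted p. Ptn was 0.57, 0.39 and 0.49 in C57 and 0.41, 0.32 and 0.54 in MF1, the narrowest range among these named genes. The medians of both lists lay nearer to that of all features (0.01) than the members' median did.

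Among 17 endothelial and mural genes the median was -0.01 and Icam2 alone was called, lower, with a C57 pool at -3.12. Their pool medians ran from -0.12 to 0.08, which is narrower than the members' -0.40 to 0.12. Among 7 choroid plexus genes 6 were below 0, with a median of -0.12, and Lmx1a, Aqp1 and Ttr were called lower. Among 11 microglia and macrophage genes the median was -0.03, with Fcer1g called higher. Among 12 genes of surface ectoderm, cartilage, bone and muscle the median was 0.03, with Actc1, Alpl and Comp called lower, all on low C57 pools. Among 18 cortical neural genes the median was 0.13 and 15 were above 0, with Hes5, Pax6 and Bcl11b called higher and Lhx2 lower. The choroid plexus list was below 0 and the neural list above 0 in all 6 pools by their medians, as the members' were not. No gene of these lists passed adjustment, and the part of any of these tissues in the members' values was not tested.

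**Figure D4:**
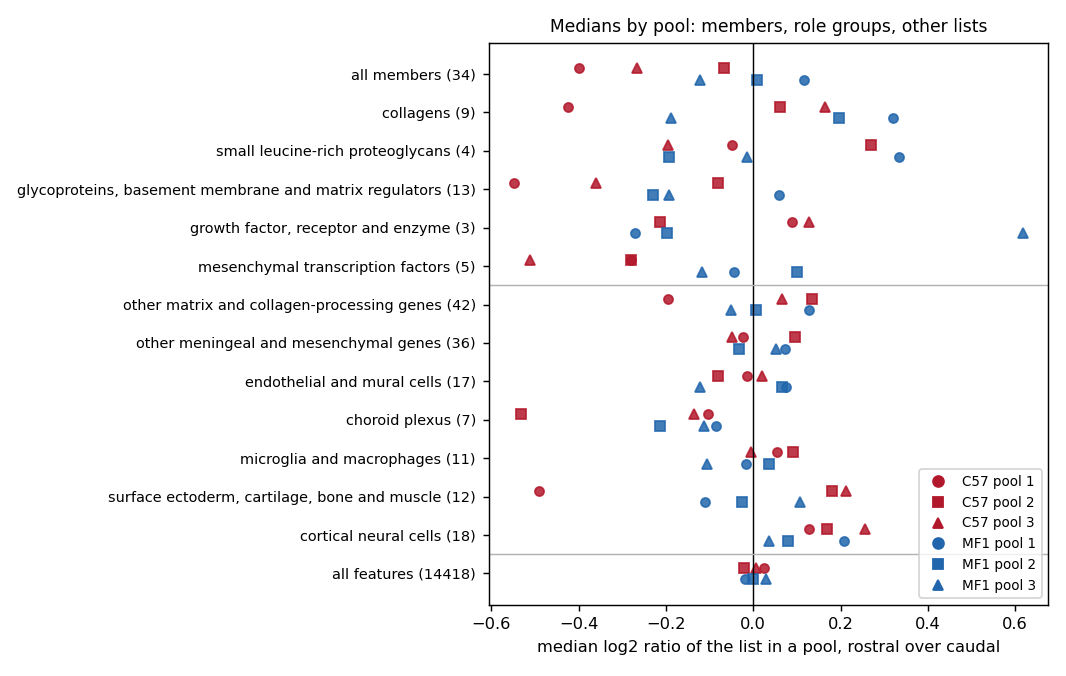
Median log2 ratio of rostral over caudal neocortex in each pool (C57 red, MF1 blue, shape by pool number) for all members, their role groups, the lists of other tissues and all features, with the number of tested genes in brackets. The members' medians run from -0.40 in C57 pool 1 to 0.12 in MF1 pool 1, and those of all features stay near 0.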

How the data were processed

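The deposited values were log2 ratios between the dyes of each two-colour array, as read from the values; per the labels, the dyes were exchanged between the arrays of a pool. The sources used here give neither the authors' scanning, background correction and normalization nor the numerator. There were 21998 probes, 12 arrays and 0 columns of other samples. Missing probes ran from 4.55% to 18.2% per array; 701 values stood at a ceiling of 16.61, a ratio of 100000 on the log2 scale, and were left out. Arrays were centred on their medians, which lay between -0.41 and 0.475. Arrays with rostral RNA in Cy3 were turned in sign, because the paired arrays' deposited values, as deviations from their strain and orientation mean, had Spearman correlations across probes of -0.15, -0.16 and 0.00 in C57 and -0.25, -0.22 and -0.35 in MF1. Without removing that mean, these correlations were 0.30, 0.16 and 0.13 in C57 and -0.12, -0.04 and -0.24 in MF1. Arrays of the same strain and orientation correlated at 0.23 to 0.32 in C57 and at -0.03 to 0.20 in MF1. No intensities were used, so signal over background is unknown; precision is limited by the number of arrays.

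Of the probes, 16864 had 1 symbol in the platform annotation, 139 several and 4995 no entry; 16184 matched the RefSeq gene table by Entrez identifier and 0 symbols were replaced. A pool needed both orientations, probes of a gene were averaged, and a feature needed 2 pools per strain. The fit used lmFit and eBayes of limma 3.58.1 (R 4.3.3) on pool means, with a mean per strain, with Benjamini-Hochberg adjustment over all features at 0.05; the fit was tested on simulated data. Pdgfra, Prrx1 and Col5a1 entered with 5 pools, and nothing was imputed.

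Pool values were given for the 8 members of smallest p, members of 1 sign in every pool, the 4 of smallest p for the strain difference, and the chains of collagens I, IV and VI with the Twist and Snai factors; of other lists, members at an unadjusted p under 0.05, at most 4. Further values were given for members chosen after their values were seen. Members and lists were chosen with earlier results of these data known. Alternatives covered centring, scaling, the ceiling, missing values, dye orientation, probes, a 12-array fit, the pool number as a block and leaving out each pool. Same-numbered pools of the strains had deviations that correlated at -0.14, 0.06 and -0.00, so the numbers pair nothing.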

Additional observations from a re-analysis of the deposited data

Results flagged for a closer look

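Of 40 results examined for 1 pool far from the rest, 2 stood out, and chance alone flags about 1 in 20. Mgp was -3.10 in C57 pool 2, while its other pools lay between -0.62 and -0.03. The arrays of that pool read -5.06 and -1.14, so both were below 0 and 1 was much lower. Lamc1 was 0.68 in C57 pool 2, while its other pools lay between -0.25 and -0.12. Its arrays there read 1.53 with rostral RNA in Cy3 and -0.18 with rostral RNA in Cy5, so the high value is on 1 array.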

How the results depend on the processing

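No member passed adjustment under the other settings, among them a fit of 12 arrays with a dye term for each strain that was chosen after seeing the data, except Col3a1 in C57 with rostral RNA in Cy3 alone (1 member). Over both strains, 24 features passed in the fit of 12 arrays and 6 among features complete on all arrays. Unadjusted calls over both strains were 6 in the reported fit (17.6% of members, against 8.98% of features) and 13 without centring (38.2%, against 15%). They were 3 where any array with a value counted (7.89%, against 7.86%). These 3 were all lower rostrally, when 4.04% of features were called lower. The members' median of -0.08 became -0.27 without centring, where that of all features was -0.18. In C57, 6 calls became 13 without centring (38.2%, against 11.5% of features), 10 in the fit of 12 arrays (29.4%, against 10.7%) and 11 with rostral RNA in Cy3 alone (28.9%, against 20.5%). With rostral RNA in Cy5 alone there were 7 calls in C57 (18.9%, against 20.2%), 6 of them lower rostrally, when 11.8% of features were called lower. In MF1, 1 call became 3 without centring (8.82%, against 5.96%), 2 with arrays scaled (5.88%, against 7.27%), 2 in the fit of 12 arrays (5.88%, against 4.58%), 3 with rostral RNA in Cy3 alone (7.89%, against 5.49%) and 0 in Cy5 alone (against 5.12%), and the median became -0.20 without centring, where that of all features was also -0.20. For the strain difference, 7 calls became 3 without centring (8.82%, against 5% of features), 3 where any array counted (7.89%, against 5.95%) and 3 with the pool number as a replicate block (9.68%, against 4.14%), which paired nothing and otherwise changed no count by over 1.5 times; its median of -0.21 became -0.40 with Cy3 alone and -0.016 with Cy5 alone.

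Leaving out each pool gave 3 to 7 calls over both strains (8.82% to 20.6% of members, against 6.82% to 11.3% of features) and 5 to 9 in C57 (14.7% to 26.5%, against 7.66% to 12.3%). It gave 0 to 4 calls in MF1 (0% to 11.8%, against 4% to 7.92%) and 2 to 6 for the difference (5.88% to 17.6%, against 4.87% to 8.32%). After adjustment there were 0 to 0 in every contrast. Medians ran from -0.15 to -0.03, from -0.27 to -0.15, from -0.05 to 0.02 and from -0.36 to -0.15 in the same order. Signs over both strains reversed for Col1a2 (0.31 with Cy5 alone), Col4a1 (-0.090 without centring), Col4a2 (-0.019 without centring), Col5a1 (-0.054 where any array counted, -0.48 with Cy3 alone), Col6a1 (0.00094 with arrays scaled, 0.57 with Cy3 alone), Col6a2 (0.010 with Cy3 alone), Col6a3 (0.13 with Cy3 alone) and Twist1 (0.33 with Cy5 alone). Leaving out a pool moved Col1a2 between -0.35 and 0.13, Col4a1 between -0.11 and 0.28, Col5a1 between -0.035 and 0.40, Col6a1 between -0.30 and 0.074 and Col6a3 between -0.21 and 0.013, each across 0. The signs of Col1a1, Fbn2, Mgp, Ogn, Snai2, Sparc, Timp3, Twist2 and Vtn held in the alternatives run for them. The mean of Ogn nonetheless fell from 0.43 to 0.02 among features complete on all arrays, with an adjusted p of 0.985 in limma. The cause of these changes was not tested, apart from fewer arrays in those that left arrays out.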
